A study of Mus musculus with 4 samples.

Results

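Microtubule-severing enzymes cut microtubules along their length, and the genes described here are the listed severing enzymes and katanin subunits of the mouse: Katna1, Katnal1, Katnbl1, Spast, Fign and Fignl1. They were taken by name, 6 genes in all, out of a table of 21523 gene identifiers. Rows for 5 of the 6 were found in the table, and Fign was not analysed here. The family was selected on the FPKM of Katna1, whose difference between the groups was already known, so the differences of its members between the groups are given as descriptions. The cells were RAW264.7, a macrophage-like line from a mouse tumour induced by a leukaemia virus. They were grown in DMEM with serum, either with no treatment (2 libraries) or with 0.5 mM 1,5-anhydroglucitol (1,5-AG), a polyol closely related to glucose, for 24 h (2 libraries). No culture time is given for the controls. The labels do not tell whether the replicates came from separate cultures, and the error behind every p-value is the spread of these 4 libraries, possibly only a technical one.

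Katanin, spastin and the fidgetins are AAA ATPases. They assemble into rings that grip the tail of tubulin and pull subunits out of the microtubule wall, which either breaks the polymer down or makes short pieces that can regrow. The catalytic p60 subunit of katanin is the product of Katna1, or of its relatives Katnal1 and Katnal2. Katnbl1 encodes a protein that binds p60 and has no ATPase domain of its own. Spastin, encoded by Spast, works with the ESCRT-III machinery at the midbody, at endosomes and at the endoplasmic reticulum. Fignl1 encodes a fidgetin-like protein best known for its part in homologous recombination.

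Katna1 and Katnal1 are close enough in sequence to ask whether their reads could be exchanged. The pair of stretches below is the part of the coding sequences with their longest shared run, and it lies at the phosphate-binding loop of the ATPase domain. It covers bases 716 to 775 of the 1482-base coding sequence of Katna1 and bases 701 to 760 of the 1467-base coding sequence of Katnal1, counted from the first base of the start codon in GENCODE M21 transcripts (mm10). Capitals mark bases that are the same in both, and small letters bases that differ.
Katna1: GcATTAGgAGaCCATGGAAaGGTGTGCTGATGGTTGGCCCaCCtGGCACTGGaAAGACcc
Katnal1: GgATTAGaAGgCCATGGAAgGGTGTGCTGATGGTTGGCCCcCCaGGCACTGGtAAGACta
Of these 60 positions 51 were the same, and the longest run without a difference was 20 bases. Over the aligned coding sequences 71.4% of 1431 bases were identical. Between Katna1 and the transcripts of the other listed enzymes the longest exact run was 13 to 15 bases, so at no point do the annotated transcripts of these enzymes share as much as 50 bases with Katna1.

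The deposited FPKM (fragments scaled to exon length and library depth) rest on 14616556 to 16228673 fragments per library, of which 14605854 to 16216566 were recovered in genes matched to the annotation. The macrophage genes Cd68 (472 to 500 FPKM) and Csf1r (237 to 258 FPKM) were abundant in all 4 libraries. Summed over the 8 macrophage markers listed, the level was 5486 and 5339 FPKM in control and 3965 and 3869 FPKM with 1,5-AG, so this sum was lower in the same libraries as Katna1. Most of it is Lyz2, with 4554 and 4422 FPKM in control and 3095 and 3001 FPKM with 1,5-AG. The part of this in the difference of Katna1 was not tested. The markers of B cells, neutrophils, fibroblasts, epithelium and neurons that had a row in the table reached at most 0.394 FPKM. Those of T and NK cells summed to 1.18 to 1.37 FPKM, with 1.37 FPKM for Lck as the highest value. That sum is low, but its range overlaps that of Katna1 with 1,5-AG (1.09 to 1.34 FPKM).

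Katna1, the catalytic p60 subunit of katanin, had 3.996 and 3.57 FPKM in the control libraries and 1.34 and 1.09 FPKM in the 1,5-AG libraries. Both 1,5-AG libraries lay below both controls, as they did in 25.4% of all genes tested, and the gap between the groups was larger than the spread within either. The underlying fragments numbered 133 and 127 in control and 43 and 36 with 1,5-AG. The exact Poisson 95% intervals cover counting error only. They ran from 111 to 158 and from 106 to 151 fragments in control, and from 31.1 to 57.9 and from 25.2 to 49.8 with 1,5-AG. Those of the groups did not overlap, but Katna1 was chosen with its difference known, so this is no separate evidence. The mean went from 3.78 ± 0.304 to 1.21 ± 0.180 FPKM (SD, n = 2 per group), a ratio of 0.321. In bulk RNA of this kind, fewer cells with the transcript and less of it per cell cannot be told apart.

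On the log2(FPKM + 1) scale used for the fit over all genes, the difference of Katna1 was -1.11 (SE 0.11, 95% interval -1.39 to -0.83). It was the 4th lowest among the 72 genes called lower, and the 18th lowest among all 11120 genes tested. The added 1 shrinks the difference of a gene at this level: with a pseudocount of 0.01 it was -1.64, and with limma's voom on the recovered fragments -1.63. Katna1 was the 1 member past the threshold (Benjamini-Hochberg adjusted p under 0.05, limma) of the 4 members tested, where 1.46% of all 11120 genes tested passed and 0.647% passed as lower. Since the family was chosen with this difference in view, nothing is read from that count. The call needed all 4 libraries, and leaving out each library in turn gave differences of -1.20 to -1.03. Such a fit has 1 library in a group and calls few genes of any kind. The lost call is therefore not read as a trait of Katna1.

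**Figure D1:**
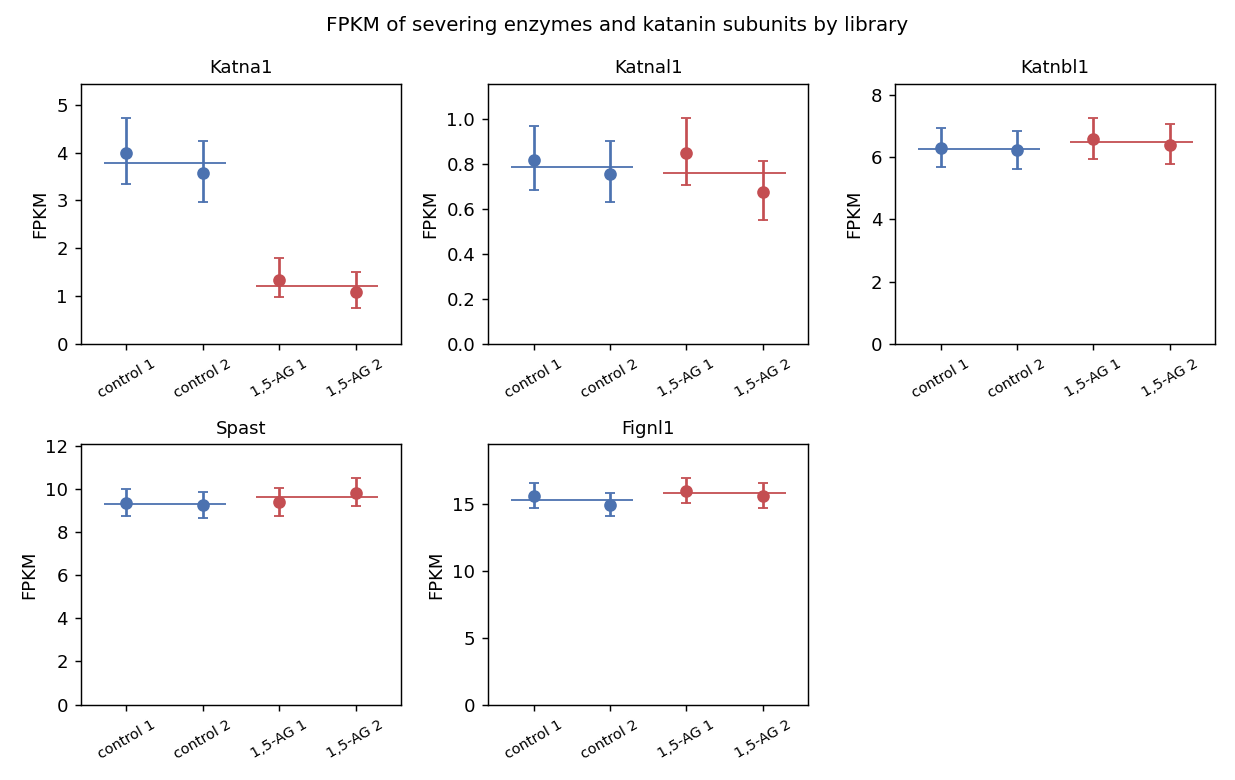
FPKM (vertical axes, each from 0) of the 5 members with values in each library (horizontal axes; blue control, red 1,5-AG). Points are libraries, bars exact Poisson 95% intervals for counting error only, and lines group means; Katna1 is at 3.57 to 3.996 FPKM in control and 1.09 to 1.34 FPKM with 1,5-AG, and the groups of the other genes lie close together.

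The locus of Katna1 is on chromosome 10 from 7726000 to 7763150 on the plus strand (mm10), with 2195 bases of merged exon and 6 annotated transcripts, 4 of them coding. The values are per gene, so they do not show which transcript was measured. On the opposite strand lies Gm20470, a non-coding transcript whose exons cover 131 bases of the exons of Katna1. The library kit keeps strand, but no source used here gives the strand setting of the counting, and Gm20470 was not analysed here. Of all runs of 50 bases in Katna1 transcripts, 5.84% also occur, on either strand, in another annotated gene, namely Gm20470 or the processed pseudogene Gm6524 on chromosome 8.

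The nearest coding genes on both sides of Katna1 did not pass the test. Lats1, a kinase of the Hippo pathway that ends 9540 bases upstream, had 1.39 and 1.67 FPKM in control and 1.11 and 1.21 FPKM with 1,5-AG. Both 1,5-AG libraries lay below both controls (118 and 133 fragments against 154 and 198), with a difference of -0.23 (limma adjusted p = 0.413). Ginm1, a membrane protein gene that lies 4797 bases downstream on the opposite strand, had 2.62 and 2.20 FPKM in control and 2.44 and 2.19 FPKM with 1,5-AG, with a difference of -0.04 (limma adjusted p = 0.892).

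Katnal1, the other p60-type catalytic subunit among the members, is on chromosome 5 (148871584 to 148929320, minus strand). It had 0.817 and 0.757 FPKM in control and 0.847 and 0.675 FPKM with 1,5-AG, and the 1,5-AG libraries lay on both sides of the controls. The 130, 129, 130 and 107 fragments behind these values are close to the numbers of Katna1 in control, but its merged exons are 10496 bases long, so its level per length is lower. On the same strand 642 of these bases are also exon of Gm42791, a coding gene model, and on the opposite strand 223 are exon of the pseudogene Gm43600. Of its runs of 50 bases 7.44% occur in another annotated gene, so its level and any ratio to it are uncertain to that extent. With a mean below 1 FPKM it stayed out of the test over all genes. In the fit with no filter on low values its difference was -0.02 (95% interval -0.30 to 0.25). Katnal2, a katanin p60-like gene that is not among the members, was lower still, with 8 to 20 fragments per library, and was not tested either.

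Katnbl1 is on chromosome 2 (112379211 to 112414240, plus strand). It had 6.28 and 6.22 FPKM in control and 6.59 and 6.40 FPKM with 1,5-AG. The 1,5-AG libraries were the higher pair, by less than the spread between them. The difference was 0.05 (95% interval -0.09 to 0.19). Katnbl1 shares 403 bases of exon with Gm21985, a coding gene model on the same strand, so its level is uncertain to that extent.

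Spast, the gene of spastin, which is mutated in a common form of hereditary spastic paraplegia, is on chromosome 17 (74338987 to 74391115, plus strand). It had 9.35 and 9.25 FPKM in control and 9.39 and 9.84 FPKM with 1,5-AG. One 1,5-AG library was almost level with the higher control, and the difference was 0.04 (95% interval -0.09 to 0.18).

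Fignl1 is on chromosome 11 (11787431 to 11808962, minus strand) and had the highest level per length of the family. It had 15.6 and 15.0 FPKM in control and 15.99 and 15.7 FPKM with 1,5-AG. Its lower 1,5-AG library exceeded the higher control by less than the spread of either group, and the difference was 0.05 (95% interval -0.08 to 0.17). No annotated transcript of another gene shares 50 bases with Fignl1 or with Spast, so these are the members least open to exchanged reads. In Katnbl1, Spast and Fignl1, 3 of the 4 members tested, both 1,5-AG libraries were above both controls, as they were in 24.2% of all genes tested. None of the 3 passed the limma test (0 at an unadjusted p under 0.05; adjusted p from 0.682 to 0.721), and by voom the adjusted p was 0.708 to 0.793. The intervals leave room for an increase of up to 0.19 and a decrease of up to 0.09 on the log2(FPKM + 1) scale.

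In control cells the order of the levels per length was Fignl1, Spast, Katnbl1, Katna1 and Katnal1, and no neighbours in that order overlapped. With 1,5-AG the order was the same, and the gap between Katna1 and Katnal1 narrowed: Katna1 had 4.89 and 4.71 times the FPKM of Katnal1 in control and 1.58 and 1.61 times with 1,5-AG. Summed over the 4 catalytic enzymes Katna1, Katnal1, Spast and Fignl1, the level was 29.8 and 28.5 FPKM in control and 27.6 and 27.3 FPKM with 1,5-AG. Katna1 made up 13.4% and 12.5% of this sum in control and 4.86% and 3.98% with 1,5-AG. These shares follow from the values of the single genes and are no separate evidence.

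**Figure D2:**
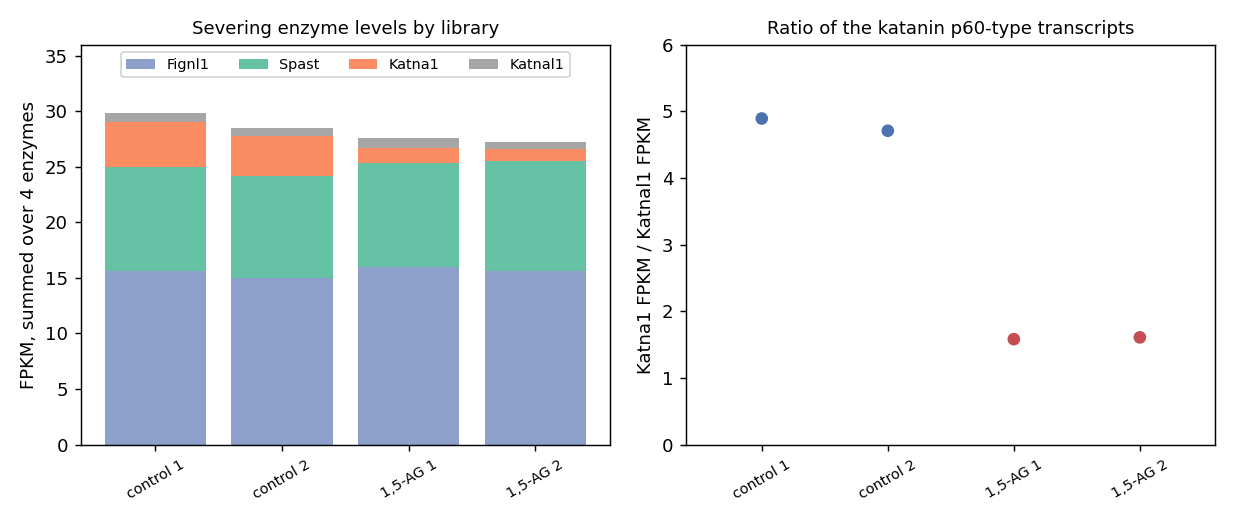
Left, FPKM of the 4 catalytic severing enzymes stacked by library (axis from 0); right, the ratio of Katna1 FPKM to Katnal1 FPKM in each library (axis from 0; blue control, red 1,5-AG). The sum is 27.3 to 29.8 FPKM, while the ratio is 4.89 and 4.71 in control and 1.58 and 1.61 with 1,5-AG.

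Of the partners and regulators of katanin, 16 genes were tested, and none passed the limma test. Of the 16, 3 had an unadjusted p under 0.05, as had 18.2% of all genes tested, and 1 was lower by voom, which called 8.29% of the genes it tested. Their median difference was 0.02, against 0.00 over all genes tested. Lzts2, whose protein holds back severing by katanin, had 11.2 and 11.1 FPKM in control and 8.72 and 9.10 FPKM with 1,5-AG. Both 1,5-AG libraries were lower, with a difference of -0.30 (limma adjusted p = 0.0777, voom adjusted p = 0.0131). The dynein regulators Nde1 and Ndel1, relatives of each other of which the latter is known to bind katanin, had opposite signs, -0.13 and 0.14 (limma adjusted p = 0.182 and 0.227). Camsap1 and Camsap2, genes of proteins that bind minus ends of microtubules, where the latter is known to recruit katanin, had -0.04 and 0.07. Cul3 and Klhl42, the ubiquitin ligase and adaptor that turn over p60, had 0.07 and -0.02, and neither these nor Camsap1 and Camsap2 passed.

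**Figure D3:**
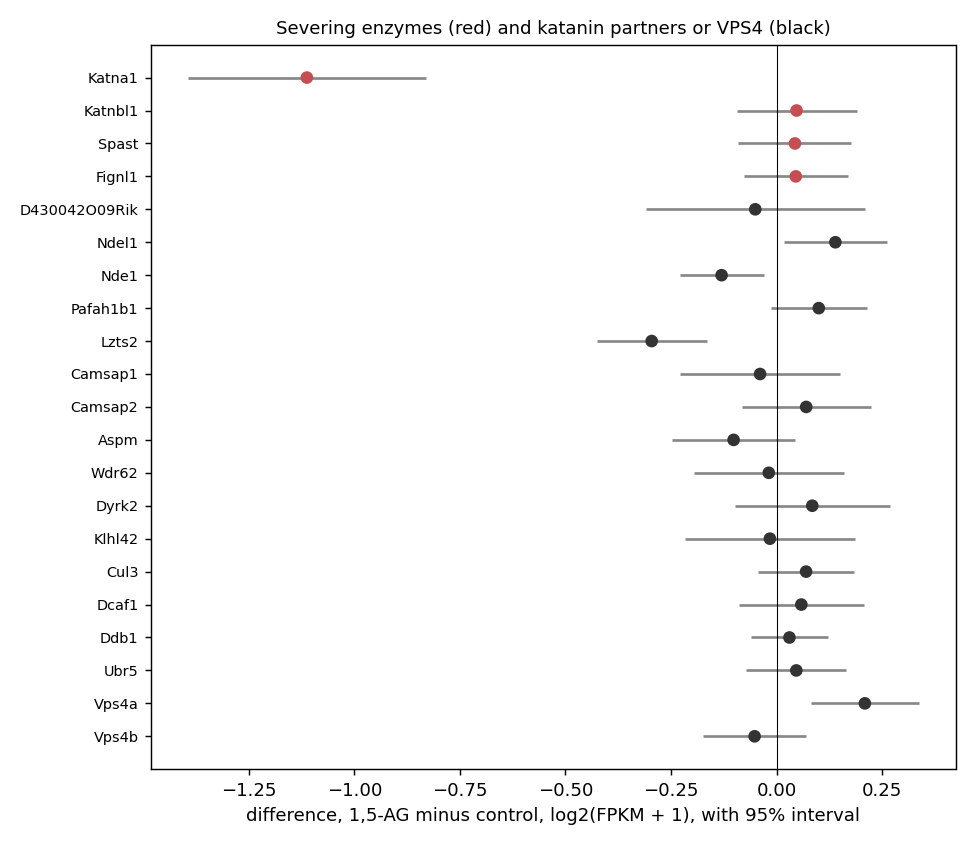
Difference between 1,5-AG and control on the log2(FPKM + 1) scale with limma's 95% interval (horizontal axis) for the 4 members tested (red) and the katanin partners and VPS4 genes reported here (black). Katna1 is at -1.11, the other members at 0.04 to 0.05, and Lzts2, at -0.30, is the lowest of the partners.

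VPS4 proteins are the closest relatives of the severing enzymes among AAA ATPases, and take apart ESCRT-III filaments rather than microtubules. Vps4a had 17.5 and 18.1 FPKM in control and 21.3 and 20.2 FPKM with 1,5-AG, a separation of the groups with a difference of 0.21 that did not pass (limma adjusted p = 0.127). Vps4b had 17.9 and 17.2 FPKM in control and 16.6 and 17.1 FPKM with 1,5-AG (-0.05, limma adjusted p = 0.625). For the next list and those below, the shares over all genes were 18.2% at an unadjusted limma p under 0.05 and 8.29% by voom. Of the 23 tested genes of ESCRT-III, VPS4 and spastin's membrane partners none passed the limma test (2 at an unadjusted p under 0.05, 0 by voom). Their median was -0.03. Among them Chmp1b, the ESCRT-III subunit that binds spastin, had -0.21 (limma adjusted p = 0.288), and Reep5, which shapes the endoplasmic reticulum, -0.16 (limma adjusted p = 0.175). Ist1, the other ESCRT-III protein that spastin binds, had -0.07.

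Of 13 genes that act with FIGNL1 in recombination none passed the limma test either (3 at an unadjusted p under 0.05, 0 by voom), with a median of 0.00. Rad51d had 7.79 and 6.94 FPKM in control and 6.19 and 5.86 FPKM with 1,5-AG (-0.25, limma adjusted p = 0.179). Xrcc2 had 0.23 (limma adjusted p = 0.272), although the products of these genes work in the same complex. BC055324, the gene of the FIGNL1 partner also called FIRRM, had 0.01.

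Tubulins, the substrate of the severing enzymes, held the single gene of the microtubule lists that passed. Tubb6, a beta-tubulin isotype, rose from 66.9 and 61.6 FPKM in control to 90.8 and 88.7 FPKM with 1,5-AG. Its difference was 0.48 (SE 0.05, limma adjusted p = 0.0330). By limma 1 of 13 tubulins tested was called higher and 0 lower, where 0.809% of all genes tested were called higher. By voom the tubulins called were also 1 higher and 0 lower, where 404 of 11056 genes tested were called higher. The limma call of Tubb6 also ended when any 1 library was left out (differences from 0.42 to 0.54), which again is not read as a trait of the gene. Of the 13 tubulins 11 had a positive difference, as had 5464 of all 11120 genes tested. An unadjusted limma p under 0.05 was found for 5 of the 13 (18.2% of all genes tested had one). In 7 of the 13 both 1,5-AG libraries were above both controls (24.2% of all genes tested). Their median was 0.08. The most abundant of them, Tubb5, had 509 and 499 FPKM in control and 537 and 532 FPKM with 1,5-AG, a difference of 0.08. Tubd1, the delta-tubulin of centrioles, had 0.22 (limma adjusted p = 0.123) and Tubb2a -0.17 (limma adjusted p = 0.213). Isotypes of tubulin are closely similar, so reads could be split between them, and their values are uncertain.

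Severing enzymes read the glutamate chains and other marks on tubulin tails, and 14 genes of the enzymes that write or erase such marks were tested. None passed the limma test (0 at an unadjusted p under 0.05, 0 by voom). Of these 14, 10 were negative, as were 5656 of all 11120 genes tested, and the median was -0.03. Tpgs1, a subunit of the polyglutamylase complex, had -0.22 (limma adjusted p = 0.430) with overlapping groups. Atat1, the tubulin acetyltransferase, had -0.18 and Hdac6, a tubulin deacetylase, -0.09, both with a limma adjusted p of 0.509. Of 6 other microtubule destabilisers none passed (1 at an unadjusted p under 0.05, 0 by voom). Before rounding, 0 of them were positive and 6 negative. The kinesin gene Kif18b had -0.14 (limma adjusted p = 0.273), Kif18a -0.10 and Kif24 -0.05, and stathmin, Stmn1, stood at 0.00.

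Among 19 stabilisers and plus-end proteins none passed the limma test (2 at an unadjusted p under 0.05). Of the 19, 14 were negative (5656 of all 11120 genes tested were), and their median was -0.05. Tacc1, a centrosomal coiled-coil protein gene, had -0.18 (limma adjusted p = 0.160) and was lower by voom (adjusted p = 0.0174). Macf1, a linker of actin and microtubules, also had -0.18 (limma adjusted p = 0.160), and Clip2, a plus-end protein gene, 0.16 (limma adjusted p = 0.304). Of 19 genes of microtubule nucleation and the centrosome none passed (1 at an unadjusted p under 0.05, 0 by voom). Of these Ninl had -0.20 (limma adjusted p = 0.326), and the augmin subunit genes Haus4 and Haus7 had -0.12 and 0.15 (limma adjusted p = 0.272 and 0.344). Of 8 tubulin folding genes none passed either (1 at an unadjusted p under 0.05, 0 by voom), with Tbca at 0.12, Arl2 at 0.11 and Tbcd at -0.05.

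Katanin acts on the spindle, so markers of dividing cells were read beside Katna1. None of 10 passed the limma test (1 at an unadjusted p under 0.05), with a median of -0.03. Mki67 had 112 and 116 FPKM in control and 110 and 101 FPKM with 1,5-AG (-0.11, limma adjusted p = 0.345), and Bub1 -0.07 (limma adjusted p = 0.390). Cenpf, a kinetochore protein gene, had -0.15 (limma adjusted p = 0.229) and was lower by voom (adjusted p = 0.0392). Over all these lists, each gene counted once, 1 of 141 genes tested passed the limma test, where 1.46% of all 11120 genes tested passed. Of the 141, 63 were positive and 78 negative, where all genes tested split into 5464 positive and 5656 negative.

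**Figure D4:**
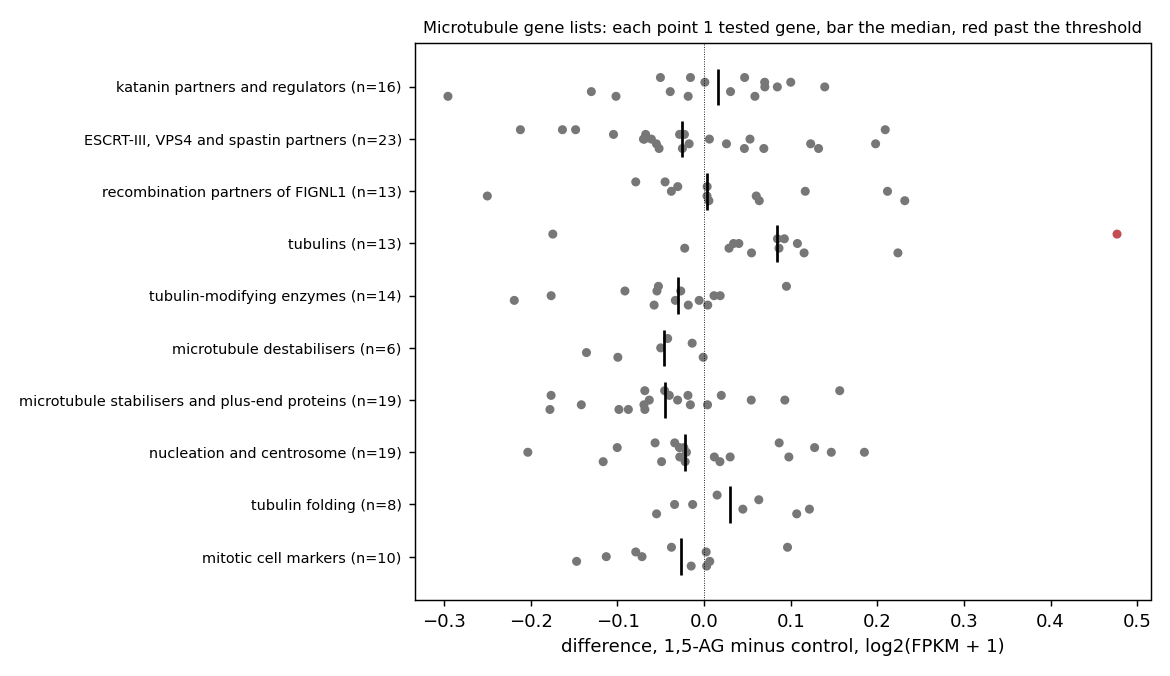
Difference between 1,5-AG and control on the log2(FPKM + 1) scale (horizontal axis) for every tested gene of 10 microtubule lists (rows); points are genes, black bars medians and red a gene past the threshold. Medians lie between -0.05 and 0.08, and Tubb6, at 0.48, is the 1 gene past the threshold.

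The genes whose pattern over the 4 libraries was most like that of Katna1 were found by the distance between profiles of log2(FPKM + 1) after the mean of each gene was taken off, among 9238 protein-coding genes with standard names. With 4 libraries in 2 groups, such likeness mostly reflects the size of the difference between the groups. The nearest was Klf4, a zinc-finger transcription factor gene, at a distance of 0.341, with 8.98 and 8.23 FPKM in control and 5.12 and 4.12 FPKM with 1,5-AG. Next came Scel, the gene of sciellin (0.367), Ms4a6d, a membrane protein gene of macrophages (0.397), Gsn, the actin-severing protein gelsolin (0.410), and Fcgr3, a receptor for IgG (0.439). The choice by profile fixes that all 5 were lower with 1,5-AG. Their differences were -0.85 to -0.71, against -1.11 for Katna1, and Scel and Fcgr3 did not pass the limma test (adjusted p = 0.0572 and 0.0523).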

How the data were processed

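Libraries were prepared with a strand-specific mRNA kit from Trizol RNA, per the labels' protocols. The authors deposited FPKM, 1 column per library. The submitters' processing notes name mm10 and the tools HTSeq, Cufflinks, HISAT2 and Trimmomatic. No source used here gives their versions, roles, annotation release or strand setting. GENCODE M21 matched 21508 of 21523 identifiers. FPKM multiplied by merged exon length gave whole fragments in all 4 libraries for 99.4% of matched genes (tolerance 0.02 fragments); a floor of 3 fragments over 2 kb of exon is 0.0924 to 0.103 FPKM.

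Groups were compared with limma 3.58.1 (R 4.3.3) on log2(FPKM + 1), with a variance trend and the group as the only term, over 11120 genes with a mean of at least 1 FPKM. Tests were two-sided, with Benjamini-Hochberg adjustment over all genes and a threshold of 0.05. A permutation of 2 against 2 libraries cannot give a p below 0.333. The script was also run on simulated counts with the same dispersion for all genes, and nothing about these 4 libraries is read from that run. Coding sequences were aligned with Biopython 1.88.

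Members and lists were chosen with earlier results of these data known. Named genes were the members, Katnal2, Vps4a, Vps4b, macrophage markers, the genes past the threshold or with the 3 smallest p of each list, the neighbours of Katna1, and the 5 most similar profiles (genes with Gm, Rik or clone names left out); Camsap1, Camsap2, Cul3, Klhl42, Ist1, BC055324, Tubb5, Stmn1, Lck and Lyz2 were named after their values were seen. Genes that the rule also returned are not reported here.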

Additional observations from a re-analysis of the deposited data

How the results depend on the processing

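The alternatives were planned, and none reversed the difference of Katna1, which ranged from -1.64 to -1.03. It lost its call without a filter on low values and without the variance trend (-1.11 in both), and with any 1 library left out (-1.20 to -1.03). The unadjusted limma p of Katna1 was 0.000153 in the main fit, 0.000969 without the filter and 0.000162 without the trend. The limma adjusted p was 0.0274, 0.125 and 0.0751 in the same order. Members past the threshold, 1, were 0 without a filter, at a mean of at least 5 FPKM (which leaves Katna1 out), without the trend and with any 1 library left out. Pathway genes past the threshold, 1, were 0 without a filter and without the trend, 2 at a mean of at least 5 FPKM, 4 with voom, and 0 with any 1 library left out. Of all genes 162 passed; the count was 0 without a filter, 360 at a mean of at least 5 FPKM, 5 without the trend, 917 with voom and 2 to 10 with 1 library left out. Same-numbered libraries deviated together by a correlation of only 0.0124, and nothing in the labels says that they are paired; with the replicate number as a block 310 genes passed, and Katna1 kept its call. Of the values of the other members and list genes named, 447 kept sign and side of the threshold, 6 lost the call and 4 gained it. All 6 losses were of Tubb6, the only one of these genes called in the main fit. The 447 are thus mostly values of genes not called there, and say little about how stable a call is. The cause of these shifts was not tested, apart from the fewer genes or libraries that a setting imposes. With 1 library left out, the single library of its group is taken to vary as the pair of the other group does. Depth limits Katna1 with 1,5-AG, at 43 and 36 fragments, and Katnal2 most.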
